A study of Caenorhabditis elegans with 4 samples.

Results

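UNC-62 binding regions on the arms of chromosome V were examined in Caenorhabditis elegans embryos. The arms were taken as the outer 25% of the chromosome on each side, that is, all regions of the series list on V with a midpoint below 5.23 Mb or above 15.7 Mb. This choice gave 380 of the 7964 regions of the series, 199 on the left arm and 181 on the right arm. The binding values of the regions played no part in it. At the left edge, the last region inside had its midpoint 16.5 kb from the limit and the first outside 38.1 kb from it. At the right edge, the first region inside lay 30.7 kb from the limit and the last outside 28.9 kb.

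The study comprised 2 replicate samples of UNC-62 ChIP and 2 of Input. All 4 came from embryos of the hermaphrodite strain OP600, raised at 20 °C. These are unc119(ed3) animals that carry wgIs600, a transgene in which unc-62 is joined to TY1, EGFP and FLAG tags, together with unc119. The strain was made by bombardment, and its transgene adds tagged copies of unc-62 to the genome. Chromatin was crosslinked with 2% formaldehyde and collected with anti-GFP antibodies, which see the tagged protein only. Input is genomic DNA of the same lysates without that step. Processed lists of the ChIP replicates and of the whole series were analysed, and no Input list was used here, so no comparison between groups of samples could be made. It is not stated whether the replicates came from separate cultures.

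UNC-62 is a worm homeodomain protein of the MEIS and Homothorax class. Proteins of this class bind DNA together with PBC partners such as CEH-20, and with Hox proteins, and UNC-62 is required for normal embryonic development. Worm autosomes are divided into a gene-dense centre and 2 arms. The arms recombine more, hold more repeats and carry more of the histone marks of silent chromatin, while the centre holds more of the conserved and broadly expressed genes. Chromosome V is known for large families of chemoreceptor genes, which sense odours and tastes and have multiplied in tandem. In the RefSeq gene table of the WBcel235 assembly, 795 of 1090 named chemoreceptor genes in 13 families were on V (72.9%), against 4995 of all 19983 protein-coding genes. Only 3 families were looked at singly, srw (95 of 109 on V), srh (180 of 220) and str (156 of 193). Nuclear hormone receptor genes with nhr symbols were on V in 167 of 269 cases, and ceh homeobox genes in 12 of 64. These are counts of genes by chromosome and say nothing about binding.

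The regions are on the WS220 genome build, and no annotation or genome of that build was at hand. Positions were not carried over from the gene table, so regions are named by coordinates and no gene or sequence is given for them. For each region the authors deposited 1 unnamed value, read here as a q-value (a p-value corrected for the number of regions). The smaller this value, the stronger a region is called, and strength was ranked within a list only. Sequencing depth is unknown, since the lists hold no read counts.

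The arms of V were sparsely marked. They held 36.3 regions per Mb over 10.5 Mb, against 73.5 per Mb in the centre of V, a ratio of 0.494. Against the arms of chromosomes I to IV, which held 2103 regions or 68.4 per Mb, the ratio was 0.531. Both ratios passed the test (two-sided exact binomial test, Benjamini-Hochberg adjusted p = 2.32e-30 against the centre and 3.79e-33 against the other arms, over 7 tests). The replicate lists gave the same direction. The ratio to the centre was 0.530 in the replicate 1 list and 0.448 in the replicate 2 list, and the ratio to the other arms was 0.582 and 0.517. The exact test counts neighbouring regions as independent, which they are not. With regions under 2 kb apart merged into 1, the ratios were 0.538 to the centre and 0.534 to the other arms, and both still passed.

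Taken singly, each arm of V had fewer regions per Mb than every other autosome arm. The left arm had 38.0 per Mb and the right arm 34.6 per Mb, against 44.8 per Mb on the left arm of II, the lowest of the other 8, and 84.5 per Mb on the right arm of III, the highest. In the replicate 1 list the arms of V had 39.8 per Mb on the left and 36.7 on the right, against 45.6 to 81.3 on the other autosome arms. In the replicate 2 list these values were 13.6 on the left and 10.5 on the right, against 13.9 to 29.3. The left arm of V was thus close to the lowest of the others in replicate 2. In percent of length covered, the left arm of V (1.73%) lay within the range of the other arms, 1.17 to 3.10%, also at 1.29% without its dense block near 4.5 Mb, and the right arm (1.15%) lay just below it.

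**Figure D1:**
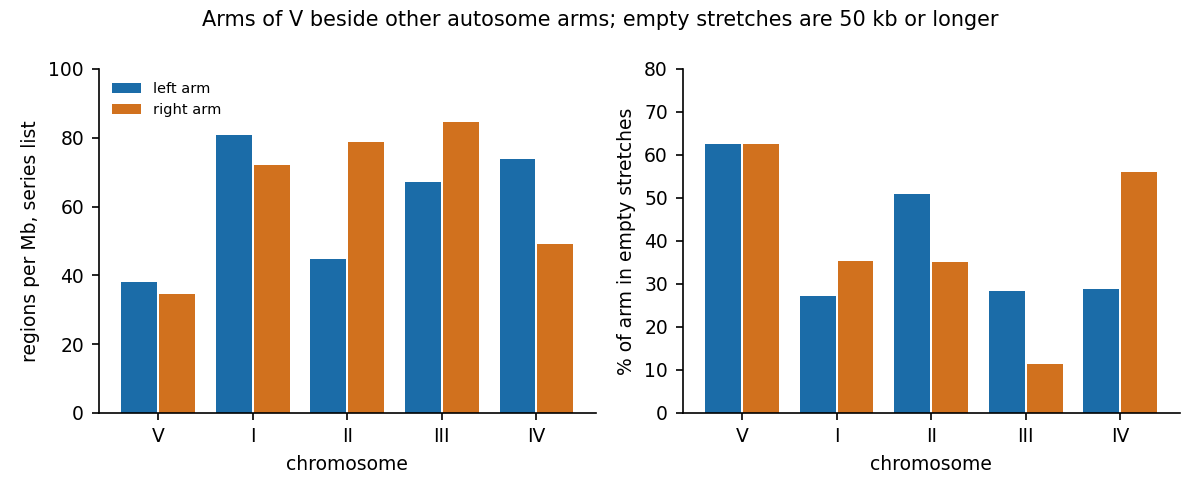
Left panel, regions per Mb on the left (blue) and right (orange) arm of each autosome in the series list; right panel, percent of each arm that lies in stretches of 50 kb or more without a region. V has the lowest bars on the left, 38.0 and 34.6 per Mb, and the highest on the right, 62.5% and 62.6%.

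The arms of V resembled each other in number. The left arm held 199 regions and the right arm 181, so the left arm's share was 52.4% (exact 95% interval 47.2 to 57.5%), which did not differ from 50% past the threshold (two-sided exact binomial test, p = 0.383, adjusted p = 0.504). Replicate 1 listed 208 regions on the left and 192 on the right, and replicate 2 listed 71 and 55. The left arm's share was therefore 52.0% in replicate 1 (46.98 to 56.99%) and 56.3% in replicate 2 (47.2 to 65.2%). Every one of these intervals includes 50%, so an excess on either arm was not detectable with these numbers.

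By covered base pairs the arms were further apart, and a single place held most of the difference. Regions covered 90.4 kb on the left arm and 60.2 kb on the right, a ratio of 1.501. The ratio was 1.67 in replicate 1, with 80.5 kb on the left and 48.4 kb on the right, and 2.18 in replicate 2, with 41.1 kb and 18.8 kb. A dense block of regions from 4486612 to 4512470 on the left arm held 23.0 kb of the series coverage. Without it the ratios were 1.12 in the series list, 1.24 in replicate 1 and 1.26 in replicate 2. With the arms taken as the outer 20% of the chromosome the direction turned, with 1.25% of the left arm and 1.29% of the right arm covered. The left arm then ends at 4.18 Mb, so this setting also leaves out the block.

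Within each arm the density was uneven, and the low points lay in different places. Each arm was cut into 5 equal steps of 1.05 Mb from the chromosome end inwards. On the left arm these held 37, 54, 18, 38 and 52 regions of the series list. The lowest step of the left arm was the middle one, 2.09 to 3.14 Mb from the end, with 17.2 regions per Mb. On the right arm the steps held 68, 44, 32, 15 and 22 regions. Here the density was highest at the chromosome end, 65.0 per Mb, and lowest 3.14 to 4.18 Mb from it, 14.3 per Mb. Equal steps of the centre held 59 to 111 regions of the series list. In this list the outermost step of the right arm lay within the range of the centre. Every other step of the arms lay below it, which did not hold in the replicate lists.

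Both replicates had these low points. In replicate 1 the left arm steps held 42, 58, 19, 34 and 55 regions and the right arm steps 66, 48, 40, 15 and 23. In replicate 2 they held 13, 19, 2, 13 and 24 on the left and 18, 11, 14, 4 and 8 on the right. Equal steps of the centre held 57 to 107 regions in replicate 1 and 18 to 41 in replicate 2. The left arm steps with 58 regions in replicate 1 and with 19 and 24 in replicate 2 were within these ranges. So was the outermost step of the right arm in both replicates. The middle step of the left arm and the step 4 of the right arm had the fewest regions in all 3 lists. Neither held a region among the strongest 10% of the series list, whereas the other 8 steps had 2 to 7 such regions each. The 2 sparse steps had only 18 and 15 series regions, so few strong ones could be looked for there, and this contrast was not tested. By the strongest 10% of replicate 1, the sparse left step held 0 regions and the sparse right step 1. By that of replicate 2, both held 0, but so did step 4 of the left arm and step 5 of the right arm. Because the series list was made from the same libraries, its steps are not separate evidence from those of the replicates.

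**Figure D2:**
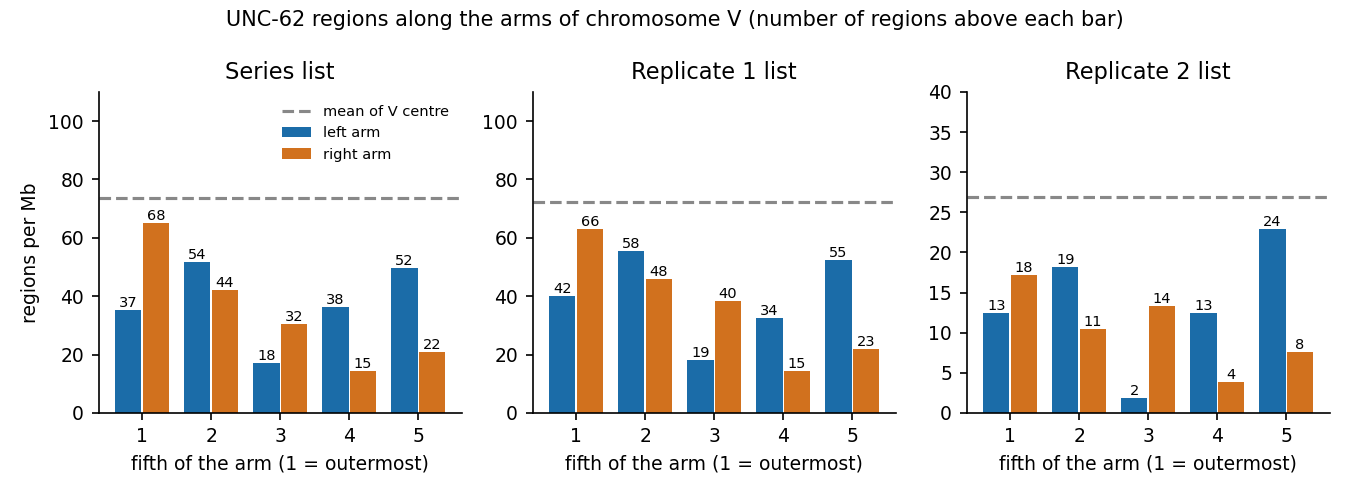
Regions per Mb in 5 equal steps of each arm of V, from the chromosome end (1) inwards (5), for the left (blue) and right (orange) arm in each list, with the number of regions above each bar; the dashed line is the mean of the centre of V, and the vertical scale of the replicate 2 panel differs. The lowest bars are step 3 on the left arm and step 4 on the right arm in every list.

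Much of each arm lay in long stretches without any region. A stretch was measured from the end of one region to the start of the next on the same arm. Those of 50 kb or more numbered 34 on the left arm and 27 on the right, and took up 3.27 Mb (62.5%) and 3.28 Mb (62.6%) of the arms. In the centre of V, of the same length as both arms together, 43 such stretches took up 3.45 Mb (33.0%). On the other autosome arms the share was 11.4 to 56.1%, highest on the right arm of IV. Stretches of 100 kb or more numbered 10 on the left arm (33.0% of its length) and 16 on the right arm (48.4%), against 9 in the centre (11.5%). The left arm thus had more stretches of 50 kb or more, and the right arm more of 100 kb or more. In replicate 2 the order at 100 kb was turned, with 19 stretches of 100 kb or more on the left arm and 17 on the right. The difference between the arms was not tested.

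The longest empty stretch of the left arm ran from 2281888 to 2672672 on V, 390.8 kb. Next came 3777249 to 4029787 (252.5 kb), 2809883 to 3039458 (229.6 kb), 4195126 to 4356164 (161.0 kb) and 773619 to 904696 (131.1 kb). The first and the third of these lie within the sparse middle step of the arm. The longest of the right arm were 18079510 to 18334498 (255.0 kb) and 17090541 to 17344925 (254.4 kb). They were followed by 17539616 to 17728403 (188.8 kb), 19720363 to 19892963 (172.6 kb) and 17345125 to 17514070 (168.9 kb). Of these 5 right arm stretches, 3 follow each other between 17.1 and 17.7 Mb, parted by a small number of regions.

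The replicate lists had little inside these stretches. None of the 10 held a whole replicate 2 region. Replicate 1 had 2 or 3 regions inside 4 of the 5 on the left arm, the strongest with a q-value of 0.000881, and none in the other. It had 2 regions in the longest of the right arm and 1 in the next, the stronger with a q-value of 0.00422, and none in the remaining 3. Over all 61 stretches of 50 kb or more, 16 replicate 1 regions lay inside on the left arm and 15 on the right. Their smallest q-values were 1.59e-05 on the left and 0.000723 on the right. Replicate 2 had 3 regions inside on each arm, with smallest q-values of 0.000471 on the left and 0.000251 on the right. On the right arm, 1 of the regions inside from each replicate had a match in the other replicate. The replicate 1 regions inside were weaker and narrower than the other replicate 1 regions of the same arm. Their median q-value was 0.00495 on the left arm, against 2.67e-05 outside, and 0.00605 on the right arm, against 0.000167 outside. Their median width was 140 bp on the left arm, against 279.5 bp outside, and 133 bp on the right arm, against 226 bp. The replicate 1 list reaches q-values of 0.00999 and the series list only 0.000997, so the weakest regions of replicate 1 had no counterpart of like value in the series list. Lying inside a stretch means having no match in the series list, so the weaker and narrower values were in part fixed by that choice.

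With all 3 lists laid over each other, 54.7% of the left arm and 55.5% of the right arm remained in empty stretches of 50 kb or more, against 30.6% of the centre. The longest were 2305329 to 2588118 on the left arm (282.8 kb) and 17090541 to 17315128 on the right arm (224.6 kb). In the replicate 2 list alone the empty stretches were longer still. It had no region from 2076366 to 2809485 on the left arm (733.1 kb), where the series list had 15 and replicate 1 had 16. It had none from 16965897 to 17728418 on the right arm (762.5 kb), where the series list and replicate 1 had 4 each.

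**Figure D3:**
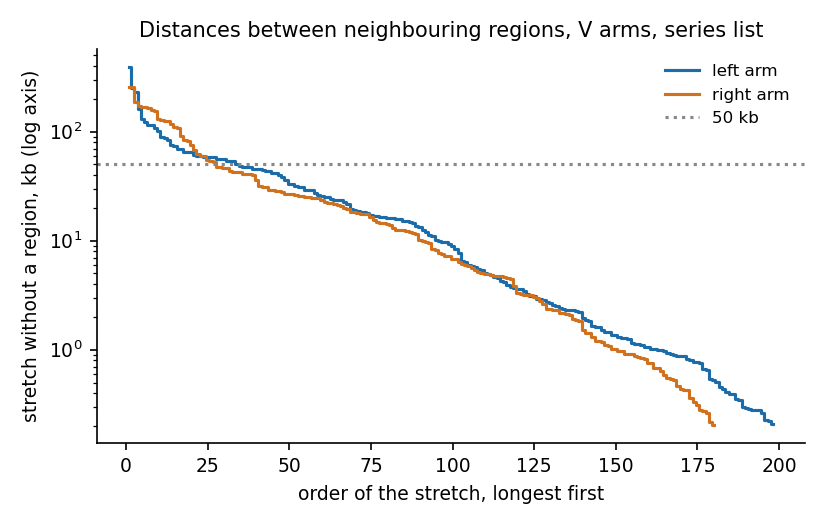
Length in kb (log axis) of every stretch between neighbouring series regions on the left (blue) and right (orange) arm of V, ordered from the longest, with a dotted line at 50 kb. The left arm has the longest stretch, 390.8 kb, and 34 at or above the line, and the right arm has 27.

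Although sparse, the regions were not evenly spread. A neighbour under 2 kb away was found for 166 of the 380 arm regions (43.7%, exact 95% interval 38.6 to 48.8%), against 398 of 769 in the centre (51.8%, 48.2 to 55.3%) and 50.3% in the whole series. By arm the numbers were 94 of 199 on the left (47.2%) and 72 of 181 on the right (39.8%). These shares were not tested. Joined at that distance, the left arm regions formed 140 groups, 105 of them single regions and 11 of 3 or more. Those of the right arm formed 137 groups, 109 of them single and 11 of 3 or more. The shortest distance between neighbours was 210 bp on the left arm and 204 bp on the right arm.

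The widths of the arm regions were close to those of the rest of the chromosome. The median width was 300 bp on the left arm (quartiles 215 and 425 bp) and 270 bp on the right arm (190 and 423 bp), against 313 bp in the centre (225 and 463 bp). In replicate 1 the medians were 268.5 bp on the left and 222 bp on the right, against 281 bp in the centre, and in replicate 2 they were 345 and 318 bp, against 333 bp. A width above 500 bp was found for 36 of 199 left arm regions (18.1%) and 32 of 181 right arm regions (17.7%), against 18.7% of the whole series. The arms did not differ from each other past the threshold (difference 0.411 percentage points, two-sided Fisher's exact test, p = 1). Without the dense block the left arm had 31 of 191 such regions (16.2%). The arms again did not differ past the threshold (Fisher's exact test, unadjusted p = 0.782). Both arms together had 68 of 380 such regions (17.9%), against 157 of 769 in the centre (20.4%), a difference that did not pass either (-2.52 percentage points, Fisher's exact test, p = 0.343, adjusted p = 0.504).

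In the replicate 1 list the left arm had a larger share of wide regions, 32 of 208 (15.4%), than the right arm, 14 of 192 (7.29%). The difference passed the threshold unadjusted (Fisher's exact test, p = 0.0121). The other p-values of single replicate lists, of 800 bp and without the block are likewise unadjusted. Over the whole replicate 1 list the share was 13.9%, near that of the left arm. Without the dense block the replicate 1 shares were 13.2% on the left and 7.29% on the right and no longer passed (Fisher's exact test, p = 0.0662). In replicate 2 the shares were 23.9% on the left, 17 of 71, and 12.7% on the right, 7 of 55, against 17.5% over its whole list (Fisher's exact test, p = 0.169). Without the block the left arm's share in replicate 2 was also 17.5% (Fisher's exact test against the right arm, p = 0.610). Regions wider than 800 bp numbered 16 on the left arm of the series list (8.04%) and 7 on the right (3.87%), a difference that did not pass (Fisher's exact test, p = 0.130), against 5.21% over the whole series. In replicate 1 they numbered 12 on the left and 2 on the right, against 3.44% over its whole list, and in replicate 2 12 and 0, against 4.21%. Without the block the left arm numbers were 12 in the series list, 9 in replicate 1 and 6 in replicate 2. At the other extreme, 3 of 199 left arm regions and 5 of 181 right arm regions of the series list were under 20 bp wide. The numbers were 10 of 769 in the centre, 53 of 2103 on the other autosome arms and 130 of 7964 in the whole series.

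Support in the replicate lists was counted at an overlap of 1 bp or more. Both replicates held 63 of the 199 left arm regions (31.7%, exact 95% interval 25.3 to 38.6%) and 50 of the 181 right arm regions (27.6%, 21.3 to 34.7%). Most other regions were in the replicate 1 list alone, 110 on the left arm (55.3%) and 95 on the right (52.5%). The replicate 2 list alone held 0 on the left arm and 2 on the right (1.10%). No match at all was found for 26 left arm regions (13.1%) and 34 right arm regions (18.8%). Over the whole series the share found in both was 36.7% and that found in neither 14.2%. The share in replicate 1 alone was 47.9% over the whole series and 51.6% in the centre. That in replicate 2 alone was 1.24% over the whole series. The share found in both did not differ between the arms past the threshold (difference 4.03 percentage points, Fisher's exact test, p = 0.432, adjusted p = 0.504). For both arms together it was 113 of 380 (29.7%), against 267 of 769 in the centre (34.7%), a difference of -4.98 percentage points that did not pass (Fisher's exact test, p = 0.0959, adjusted p = 0.224). With regions under 2 kb apart merged, the same difference was -9.48 points and passed unadjusted (32.9% on the arms, 42.3% in the centre; Fisher's exact test, p = 0.00946). With every list, the replicates included, cut to its stronger 50%, it turned to 1.46 points (37.7% on the arms, 36.2% in the centre; Fisher's exact test, p = 0.770). The cut replicate lists offer fewer matches, so these 2 shares cannot be set beside those from the full lists.

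Support followed strength on the arms. The series list was cut into 5 classes of equal size by q-value. As that list was made from the same libraries as the replicate lists, a rise of support with strength was largely fixed in advance. It is a description only. In the strongest class, all 34 left arm and all 31 right arm regions were found in both replicates, against 146 of 147 in the centre and 98.6% in the whole series. In the next class the numbers were 23 of 40 on the left (57.5%) and 14 of 25 on the right (56.0%), against 86 of 150 in the centre (57.3%) and 64.1% in the whole series. In the middle class they were 4 of 40 (10.0%) and 5 of 34 (14.7%), against 32 of 156 (20.5%) in the centre and 18.9% in the whole series. Differences within a class were not tested. In the class after that, both replicates held 1 of 37 left arm regions and 0 of 41 right arm regions, against 3 of 148 in the centre and 1.57% in the whole series. In the weakest class they held 1 of 48 left arm regions and 0 of 50 right arm regions, against 0 of 168 in the centre and 0.377% in the whole series. The arms had 98 of their 380 regions (25.8%) in this weakest class and the centre 168 of 769 (21.8%). In the strongest class the arms had 65 of 380 (17.1%) and the centre 147 of 769 (19.1%). Among the strongest 10% of the series list, 9.99% by construction, were 21 left arm regions (10.6%) and 15 right arm regions (8.29%).

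**Figure D4:**
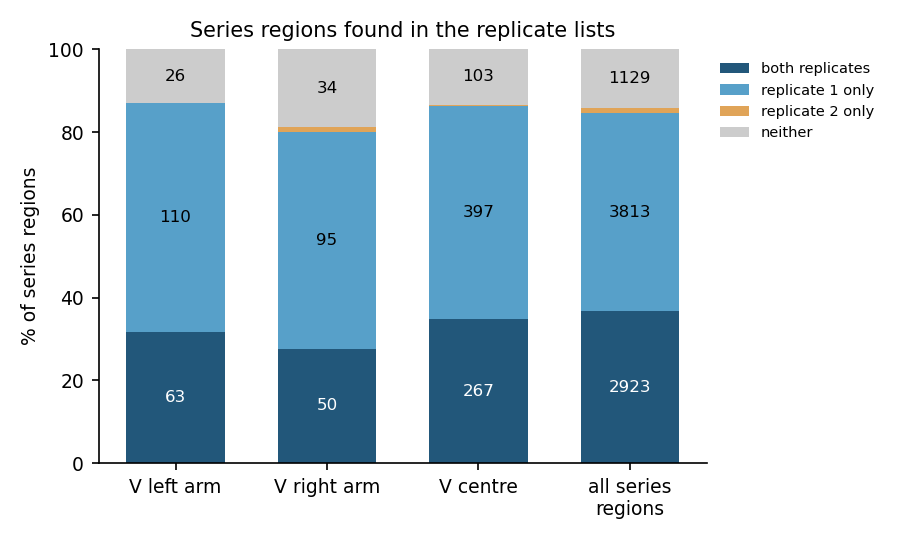
Percent of series regions found in both replicate lists, in 1 of them or in neither, for the left arm, the right arm and the centre of V and for all series regions, with the number of regions in each part of the bars. Regions found in both make up 31.7% on the left arm and 27.6% on the right, against 34.7% in the centre and 36.7% in all.

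Regions with support in both replicates were wider and stronger, again in lists made from the same libraries. On the left arm their median width was 450 bp and their median q-value 1.12e-18, compared with 270 bp and 5.34e-06 for those in replicate 1 only and 155.5 bp and 0.000513 for those in neither. On the right arm the same values were 431.5 bp and 1.69e-20, 255 bp and 1.25e-05, and 145 bp and 0.000199. Where an arm region was found in both, replicate 1 gave the smaller q-value for 59 of 63 regions on the left and 47 of 50 on the right, against 241 of 267 in the centre (90.3%). As q-values depend on depth and enrichment together, this does not measure binding.

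The replicate lists differ in size and limit. Replicate 1 listed 7782 regions with q-values up to 0.00999, and replicate 2 listed 3138 with q-values up to 0.000998. Shares matched in the 2 directions thus rest on unlike lists. Seen from the replicate lists, 66 of 208 replicate 1 regions on the left arm (31.7%) and 52 of 192 on the right (27.1%) had a match in replicate 2. Over the whole replicate 1 list the share was 37.9%. For replicate 2 regions the matches in replicate 1 were 67 of 71 (94.4%) on the left and 51 of 55 (92.7%) on the right, against 94.8% over its whole list. Of the unmatched replicate 1 regions, 30 of 142 on the left arm and 42 of 140 on the right had no match in the series list. Of all replicate 1 regions, 85.6% on the left arm and 77.6% on the right overlapped a series region. Over the whole replicate 1 list that share was 87.6%, and the difference was not tested. The 3 strongest unmatched replicate 1 regions of each arm all overlapped a series region. On the left arm they were 1326074 to 1326431 (358 bp, replicate 1 q-value 7.93e-12), 979727 to 980052 (326 bp, 5.73e-10) and 1244067 to 1244717 (651 bp, 1.43e-09). Those of the right arm were 16592052 to 16592457 (406 bp, 1.26e-09), 20824219 to 20824569 (351 bp, 1.40e-09) and 20062551 to 20062807 (257 bp, 6.02e-09). The unmatched replicate 2 regions numbered 4 on each arm. The strongest on the left was 4513972 to 4513997, only 26 bp wide, with a q-value of 5.78e-05, and on the right 16964938 to 16965186 (249 bp, 0.000314). Neither had a match in the series list.

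The 2 top ranks on the arms belonged to the dense block of the left arm. All 10 of the strongest on each arm were found in both replicates. Those of the left arm held ranks 1 to 337 of the series list and had a median width of 825.5 bp, or 562 bp for the 7 outside the block. Those of the right arm held ranks 34 to 639 and had a median width of 444 bp. The 3 top-ranked members of the left arm's block account for the ranks 1, 6 and 94. Outside the block, the strongest left arm region ranked 92, behind the 2 strongest of the right arm, which ranked 34 and 84.

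On the left arm the first 2 in strength, V 4498493 to 4511955 (13463 bp) and V 4490593 to 4492096 (1504 bp), belong to the block. The first had a listed q-value of 0 in the series list and in replicate 1, where it also ranked 1, and 4.12e-173 for the stronger of its 2 parts in replicate 2. The other had 1.90e-181 in the series list, 8.88e-160 in replicate 1 and 1.66e-95 in replicate 2. V 974936 to 975683 (748 bp) followed, with q-values of 1.90e-75 in the series list, 1.01e-55 in replicate 1 and 1.08e-23 in replicate 2. Behind it came the broad block region V 4492376 to 4497505 (5130 bp, 2.87e-75), which replicate 1 split into 4 regions and replicate 2 into 3. V 4777572 to 4778010 (439 bp, 7.83e-63) was the narrowest of the 10 and stood alone, 22.7 kb from its nearest neighbour. The remaining 5, with series q-values of 4.77e-61 to 2.52e-43, were V 1151206 to 1152108, V 4963934 to 4965090, V 731276 to 731804, V 281055 to 281578 and V 5049377 to 5049938.

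The strongest on the right arm were a pair of neighbours 5.89 kb apart. V 19522325 to 19523177 (853 bp) had q-values of 5.10e-107 in the series list, 3.46e-78 in replicate 1 and 4.29e-41 in replicate 2. V 19529066 to 19529589 (524 bp) had 1.00e-77, 1.12e-59 and 3.75e-26 in the same lists. In the series list, replicate 1 and replicate 2 the first ranked 34, 33 and 32, and the other 84, 68 and 87. V 18581707 to 18582190 (484 bp) followed with 2.81e-65, 1.02e-45 and 1.84e-23. A further pair lay close to the chromosome end, V 20767085 to 20767450 (366 bp, series q-value 1.24e-58) and V 20773569 to 20774085 (517 bp, 9.43e-42). The first of these ranked 94 in replicate 2 and 187 in replicate 1. V 15873691 to 15874156 (466 bp, 8.67e-33) stood farthest from other regions, with its nearest neighbour 107.2 kb away. The others were V 20016736 to 20017142, V 19713356 to 19713698, V 19642951 to 19643372 and V 19181654 to 19181999, with series q-values of 1.12e-35 to 2.16e-30.

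**Figure D5:**
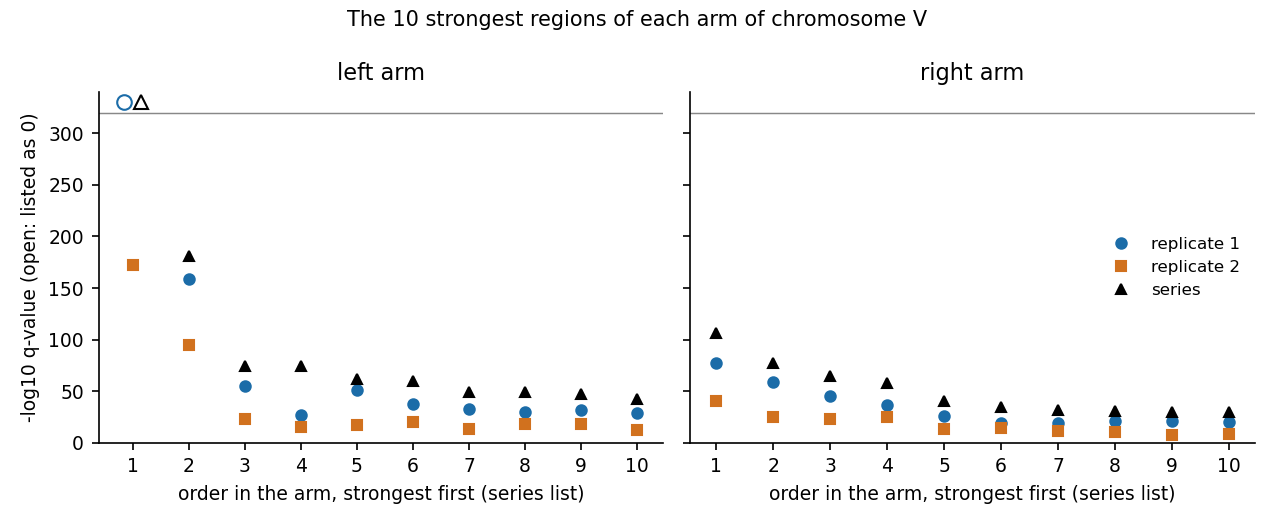
The -log10 q-value of the 10 strongest series regions of the left and right arm of V in the series list (triangles), replicate 1 (circles) and replicate 2 (squares, strongest overlapping region); open symbols above the line are values listed as 0. The first 2 left arm regions, both in the block near 4.5 Mb, stand above all others, and the right arm begins at a series q-value of 5.10e-107.

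The block of the left arm ran from 4486612 to 4512470 on V, 25.9 kb, and its 8 regions covered 89.1% of it. It was covered to 79.8% by 11 regions in replicate 1 and to 67.2% by 8 regions in replicate 2. Its strong and broad regions followed a weaker left edge. The first 3 regions, from 4486612 to 4488465, were 369, 151 and 765 bp wide, had q-values of 1.39e-10, 6.43e-05 and 4.06e-10, and were found in replicate 1 only. The next, V 4488899 to 4490313 (1415 bp, 3.63e-34), and the 3 strongest described above were found in both replicates. The last, V 4512238 to 4512470 (233 bp, 2.53e-05), was found in neither.

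The tagged gene, unc-62, is itself on chromosome V. In the order of protein-coding genes on V in the WBcel235 table it is number 1040 of 4995, between exc-15 and T28F12.1. The transgene adds copies of unc-62 sequence, and reads from such copies cannot be told apart from reads of the native gene in lists of this kind. Whether the block lies at unc-62 was not tested, since the regions and the gene table are on different builds, and no Input list was at hand to show the copy number. Left arm coverage, its shares of regions wider than 500 bp and the top ranks that include the block are given above with and without it.

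Other groups of close regions on the arms were far smaller. On the left arm the next were 1227760 to 1233453 (5.69 kb, 4 regions covering 70.6%, 45.9% in replicate 1 and 25.3% in replicate 2) and 4963099 to 4969239 (6.14 kb, 6 regions covering 57.7%). The group with most covered base pairs on the right arm ran from 18719483 to 18724657, 5.18 kb, with 3 regions covering 86.6%. These were V 18719483 to 18721415 (1933 bp, 3.54e-17), the widest of the right arm, V 18721847 to 18722815 (969 bp, 6.69e-14) and V 18723080 to 18724657 (1578 bp, 7.38e-26). All 3 were found in both replicates, but replicate 1 covered 47.0% of the group in 6 shorter regions and replicate 2 covered 39.3% in 3. None of the 3 was among the 10 strongest regions of the arm.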

How the data were processed

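Coordinates are on WormBase WS220 and regions were called with PeakSeq, per the file headers and the source column of the deposited files. For the PeakSeq version, aligner, read filters and making of the series list, the sources used here give nothing. The authors deposited 1 unnamed value per region, read as a q-value or p-value, which the lists do not tell apart. Depth is unknown.

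Regions were placed by midpoint. Each arm was given a length of 5.23 Mb, from the edges of the rule. Lengths of other chromosomes are the highest region end in any list. Regions were called shared at 1 bp overlap or more. Exact binomial and Fisher's exact tests were two-sided (threshold 0.05, scipy 1.17.1). The 7 main tests were adjusted together. The p-values of single replicate lists, of other settings and without the block are unadjusted. Intervals are exact 95% Clopper-Pearson intervals over regions. Tests and intervals treat neighbouring regions as independent and cover counting error only. Functions were tested on simulated lists. Regions named are the 10 strongest per arm, the 3 strongest unmatched ones per replicate and arm, the 5 longest empty stretches and the densest block, with others named after their values were seen. Members, lists and tests were chosen with earlier results of these data known. Genes and motifs at regions were not analysed here.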

Additional observations from a re-analysis of the deposited data

How the results depend on the processing

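Of 68 values under alternatives, 49 kept their side of the threshold and direction or moved by less than their spread or interval. These include all 12 density ratios of the V arms, 0.434 to 0.544 against the centre and 0.493 to 0.582 against the other autosome arms. With the arms as the outer 20%, which also leaves out the densest block, the left arm's share of regions was 48.0%. The difference in percent covered, left minus right, was then -0.0439 points in place of 0.576, and that in wide regions -1.23 points. Without the densest block, an alternative chosen after seeing the data, the covered difference was 0.136 and the wide difference -1.45 points. Single replicate lists gave 0.425 to 0.615 for the covered difference and 8.09 to 11.2 points for the wide difference between arms. The latter passed the threshold, unadjusted, in replicate 1 only. For the wide difference of arms and centre they gave -4.13 to 0.542 points (1.11 in the series list at 800 bp). They gave 30.2 to 43.5% of regions with a close neighbour. The last was 34.0% in the stronger 50% and 61.1% at 5 kb. Stretches of 100 kb or more numbered 26. The share in both replicates, arms minus centre, was 1.46 points with every list, the replicates included, cut to its stronger 50%. It passed unadjusted at -6.33 (outer 20%; Fisher's exact test, p = 0.0471), -9.48 (merged) and -6.09 points (midpoints within 100 bp; Fisher's exact test, p = 0.0307). Support in a single replicate list gave -4.72 to -2.66 points for arms and centre and 2.93 to 6.82 between arms. Ranked by width, 4 of the 10 strongest left arm regions and 1 of the right remained. What caused these changes was not tested. No paired analysis was possible because no Input list was used. Gene and motif alternatives were not run for want of a WS220 genome.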
